A study of Mus musculus with 6 samples.

Results

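The histone genes were the rows of the gene table whose symbol began with Hist1h, Hist2h, Hist3h or Hist4h, or with the newer forms H1f, H2ac, H2bc, H3c or H4c and a digit. The rule found 67 of 17866 genes, and it used names only, not measured values. They comprised 6 genes of linker histone H1, 18 of H2A, 18 of H2B, 12 of H3 and 13 of H4. The libraries came from corneal epithelium of 6-month-old C57BL/6 mice. In the study, the knockout mice (KO, labelled Rela-/-) carried a floxed Rela allele and Krt14-Cre, so Rela was removed in cells with a history of Krt14 expression, which include conjunctiva and other epithelia beside the cornea. The other 3 libraries were labelled WT and came from mice of the same strain and age, which the study calls control mice. Rela encodes a canonical subunit of NF-κB. Each group had 3 libraries (n = 3), and the sources used here do not mention pooling of animals.

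Histones are the proteins around which DNA is wound. H2A, H2B, H3 and H4 form the nucleosome core and H1 binds the linker DNA. Most of their genes lie in clusters, are read mainly in S phase, when new DNA needs new histones, and give short mRNAs without introns. These mRNAs end in a conserved stem-loop that is bound by the protein Slbp, and they lack a poly(A) tail. Replacement histones such as H1f0, the linker histone of non-dividing and differentiated cells, are made outside S phase from polyadenylated mRNAs. Several clustered genes also give polyadenylated mRNAs that run past the stem-loop.

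All 67 genes were matched to transcripts of GENCODE M21 (build GRCm38). On chromosome 13, 23 of them lay between positions 21715713 and 22043658 and 30 between 23531044 and 23934913. A further 10 lay on chromosome 3 between 96209627 and 96279001, 2 on chromosome 11, 1 on chromosome 6 (Hist4h4) and 1 on chromosome 15 (H1f0). The stem-loop letters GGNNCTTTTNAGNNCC were found in transcripts of 43 genes, beside 0.329% of all 21901 protein-coding genes. They were found in 3 of 6 H1, 11 of 18 H2A, 10 of 18 H2B, 8 of 12 H3 and 11 of 13 H4 genes. Of the 24 without them, 17 had an annotated 3′ UTR under 60 bases. With 1 loop taken per gene, 6 forms occurred, and the commonest was shared by 26 genes of H1, H2A, H2B and H3. The H4 genes had forms of their own, the commonest in 7 genes.

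The loops of 8 genes described below are shown 5′ to 3′ on the gene's strand, with the stem-loop in capitals and the neighbouring bases in lower case, so that the form of H1, H2A and H3 can be set against that of H4. They lie, on GRCm38, at chr13:23739512-23739527 (Hist1h1c, plus strand), chr13:21810898-21810913 (Hist1h2ao, plus), chr13:21833029-21833044 (Hist1h2ap, minus), chr11:58955172-58955187 (Hist3h2a, plus), chr3:96238485-96238500 (Hist2h3c2, minus), chr13:22040966-22040981 (Hist1h4i, minus), chr13:21812129-21812144 (Hist1h4m, plus) and chr6:136803998-136804013 (Hist4h4, minus). All lie in the 3′ UTR of a transcript with a single exon.
Hist1h1c: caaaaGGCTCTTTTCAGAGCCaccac
Hist1h2ao: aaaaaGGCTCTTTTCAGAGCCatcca
Hist1h2ap: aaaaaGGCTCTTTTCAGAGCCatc
Hist3h2a: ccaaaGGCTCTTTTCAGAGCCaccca
Hist2h3c2: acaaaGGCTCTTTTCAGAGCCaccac
Hist1h4i: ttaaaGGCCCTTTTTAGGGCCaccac
Hist1h4m: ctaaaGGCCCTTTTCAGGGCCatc
Hist4h4: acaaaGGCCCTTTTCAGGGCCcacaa

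The length annotated past the loop differed between these genes. The longest transcript of Hist1h1c ran 840 bases past it, that of Hist3h2a 1643 and that of Hist4h4 2445, whereas that of Hist1h2ap ended 3 bases and that of Hist1h2ao 31 bases after it. Of the 43 genes, 22 ended within 100 bases of the loop and 21 ran further. An AATAAA polyadenylation signal was found in the 3′ UTR of 19 of the 67 genes. Several of the other 48, Hist1h2ai among them, had no annotated 3′ UTR in which it could be found. Those 19 had a median FPKM (estimated counts scaled to gene length and library total) of 0.767 and the other 48 one of 0.434, and 6 of the 19 and 4 of the 48 had a mean of at least 50 counts.

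The promoters also shared features. RefSeq promoters (250 bases before to 50 after the start, GRCm38.p6) were found for 62 of the genes, 63 promoters in all. Motifs were searched only in the 250 bases before the start. The letters CCAAT, on either strand, were in 81.0% of these promoters and in 33.8% of all 32851. The letters TATAAA, on either strand, were in 46.0% and in 12.4%. The NF-κB consensus, searched on both strands, matched 1 of the 63 (1.59%), against 5.93% of all promoters. Among genes with such a promoter, 2 members started within 500 bases of each other on opposite strands in 10 cases, each an H2A gene beside an H2B gene. Hist1h2bc and Hist2h2be had no such promoter, so pairs with them were not counted. The stretches between 3 such pairs are shown because their H2A genes carried most of the H2A counts. Hist1h2ao faces Hist1h2bq across chr13:21810200-21810366 (plus strand), Hist1h2ai faces Hist1h2bl across chr13:21716184-21716411 (plus), and the 250 bases before Hist1h2ap, towards Hist1h2br, are chr13:21833476-21833725 (minus). Each is written towards the start of the H2A gene, with CCAAT or its reverse complement ATTGG in capitals. These letters occurred 2 times before Hist1h2ao, 4 times before Hist1h2ai and 3 times before Hist1h2ap, and TATAAA in none of the 3.
Hist1h2ao: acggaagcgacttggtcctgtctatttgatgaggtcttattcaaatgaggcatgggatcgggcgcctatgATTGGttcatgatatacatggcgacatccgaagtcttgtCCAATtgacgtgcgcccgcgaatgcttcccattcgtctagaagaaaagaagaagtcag
Hist1h2ai: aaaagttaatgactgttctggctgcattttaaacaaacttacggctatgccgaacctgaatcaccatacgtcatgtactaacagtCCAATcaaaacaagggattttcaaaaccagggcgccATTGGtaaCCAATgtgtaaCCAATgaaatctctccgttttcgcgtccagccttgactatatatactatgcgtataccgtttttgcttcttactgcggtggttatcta
Hist1h2ap: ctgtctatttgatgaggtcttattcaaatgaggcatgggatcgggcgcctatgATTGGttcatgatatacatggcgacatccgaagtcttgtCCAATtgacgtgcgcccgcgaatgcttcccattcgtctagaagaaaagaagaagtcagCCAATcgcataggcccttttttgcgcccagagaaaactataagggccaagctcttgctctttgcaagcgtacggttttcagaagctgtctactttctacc

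The stretches of Hist1h2ao and Hist1h2ap share an identical run of 150 bases. In these 3 pairs the H2A side had the higher counts. Hist1h2ap had a mean of 856 estimated counts and Hist1h2br 18.4, Hist1h2ao 740 and Hist1h2bq 63.2, and Hist1h2ai 217 and Hist1h2bl 5.05. Some other pairs were closer, as Hist1h2ae with a mean of 12.5 and Hist1h2bg with 10.4. Others were not, as Hist1h2an with 28.1 and Hist1h2bp with 1.05. The H2B side was the higher one in some, as Hist1h2ba with 8.07 and Hist1h2aa with 0.678. Reads that fit several copies were divided among them by estimation, so a difference between neighbours is a difference of assigned reads.

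Library totals were 20158404 to 20880347 counts, and a floor of 3 counts was 0.144 to 0.149 CPM (estimated counts scaled to equal library totals), which covers counting error only. As a check on the labels, Rela gave counts of 1871, 1844 and 1855 in WT and of 318, 223 and 313 in KO. The summed CPM of 4 corneal epithelial markers (Krt12, Pax6, Aldh3a1 and Krt5) was 84261 to 87729 in WT and 20382 to 22905 in KO, and that of 4 epidermal markers (Krt1, Krt10, Lor and Flg) was 15.1 to 20.1 and 10145 to 22708. Immune markers summed to 271 to 346 CPM in WT and 260 to 331 in KO with 3 of 5 tested called higher and 1 lower. The lower one, Itgam, made up most of both sums (mean 266 CPM in WT and 175 in KO). The 3 higher ones were Ptprc (0.402 and 5.27), Cd74 (7.99 and 64.3) and Lyz2 (0.0626 and 9.39), and Cd68 was not called. Fibroblast or keratocyte markers summed to 13.3 to 16.9 and 14.998 to 24.4 with 4 of 5 tested higher and 1 lower. The lower one, Pdgfra, made up most of the WT sum (mean 13.1 CPM in WT and 1.21 in KO). The 4 higher ones were Vim (0.905 and 10.3), Col1a1 (0.545 and 2.12), Col1a2 (0.0623 and 0.702) and Dcn (0.0311 and 4.53). These sums therefore hide changes of single markers in both directions. For endothelium, Pecam1 was called higher and the sum was 0.0458 to 0.237 CPM in WT and 0.810 to 0.897 in KO. The part of these shifts in the histone results was not tested, and in bulk tissue fewer cells of a type and less RNA per cell cannot be told apart.

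Most histone genes were barely detected. A mean under 10 counts was found for 47 of the 67 (70.1%), against 25.9% of all genes, and the median FPKM was 0.520 for the histone genes and 3.79 for all genes. H1f0 alone held 49.8% of all histone counts, and the 6 most abundant genes held 88.6%. Per length, the order over the 6 libraries was Hist1h2ap (97.8 FPKM), H1f0 (83.8), Hist1h2ao (68.3), Hist1h2bc (51.1), Hist1h1c (36.6), Hist1h2ai (25.1), Hist2h2aa1 (22.1) and Hist3h2a (14.9), and the highest H4 gene was Hist1h4i (6.06). The 12 H3 genes together summed to 3.73 ± 0.192 FPKM in WT (SD, n = 3) and 12.4 ± 3.11 in KO. By contrast, the genes of the replacement histone H3.3, H3f3a and H3f3b, summed to 930 ± 52.3 and 983 ± 35.2 FPKM. The study's methods describe depletion of ribosomal RNA, whereas the labels name an Illumina TruSeq RNA kit, whose standard protocol selects poly(A) RNA. Which of these was used, and its part in the low levels, was not tested.

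**Figure D1:**
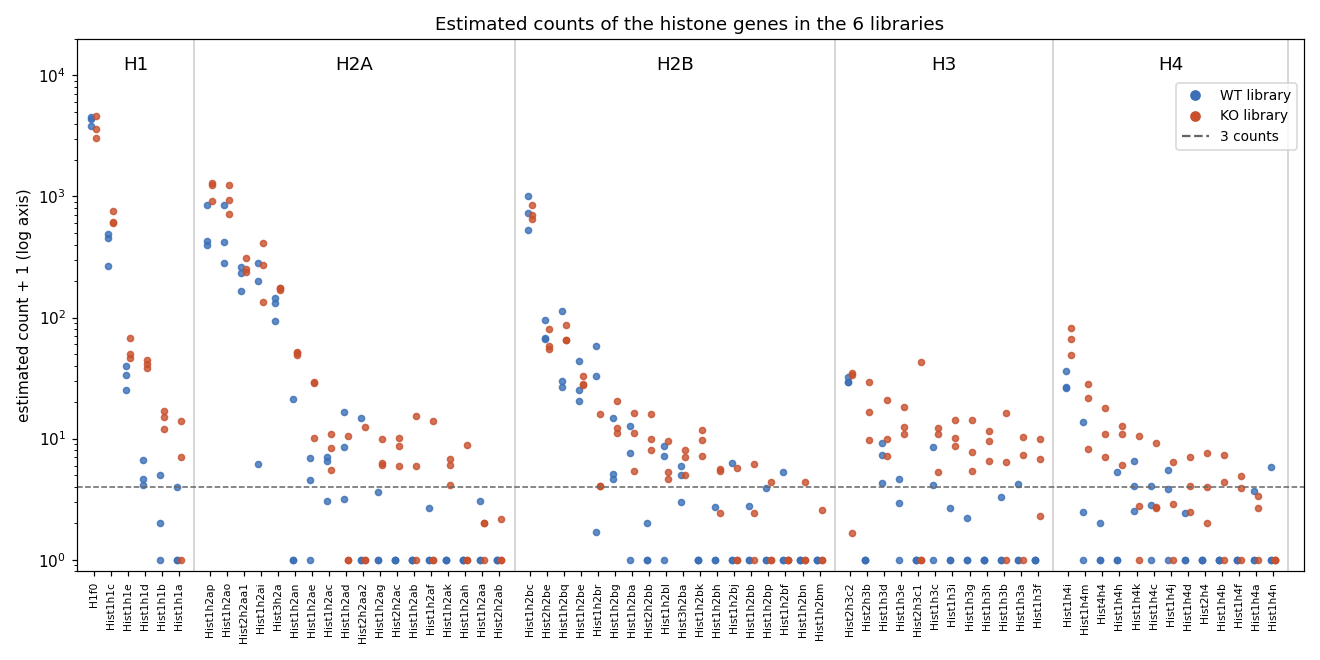
Estimated count plus 1 (log axis) of each of the 67 histone genes in the 3 WT (blue) and 3 KO (red) libraries, grouped by class and ordered by mean count, with the dashed line at 3 counts. By mean count H1f0 is highest, followed by Hist1h2ap, Hist1h2bc and Hist1h2ao. In H3 and H4 most WT points lie at or under the line while most KO points lie above it.

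More of these genes were detected in KO. Above 3 counts were 28, 28 and 25 genes in the WT libraries and 53, 44 and 49 genes in the KO libraries. For 29 genes every WT count was at or under 3, and for 25 of these at least 1 KO count was above 3. The reverse was seen for Hist1h2bf and Hist1h4n. The same counts over all genes are not given here, so no comparison with the whole table is made from them. Over all 67 genes, the 3 KO values lay above the 3 WT values without overlap for 24 (35.8%, beside 31.5% of all rows). The opposite was seen for 0, beside 26.6% of all rows, and the groups overlapped for 43. The share of higher genes was close to that of the whole table. A gene with 0 counts in any WT library could not be lower, and most of the 67 genes had such a count. The 0 lower genes are therefore not read as a result.

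The filter on low counts kept 21 of the 67 genes (31.3%, against 74.5% of all genes). Of the 21, 4 (Hist1h1b, Hist1h1d, Hist1h2an and Hist1h2bg) had at least 10 counts in every KO library and in at most 1 WT library. They were kept because of their KO level, so their selection favoured a difference in that direction. At an adjusted p of 0.05, 9 of the 21 were called higher in KO, 0 lower, and 12 were not called. The 9 include 3 of those 4 genes, and 6 of the other 17 were called. Over all 13305 genes tested, 31.8% were called higher and 30.2% lower. In either direction 42.9% of the 21 and 62.0% of all genes were called, a difference that was not tested. Of the 12 not called, 4 had a negative log2 fold change. At an unadjusted p under 0.05 the lower count was 0 too, and by DESeq2 and limma 0 were called lower. The median log2 fold change of the 21 was 0.81, and that of all genes 0.01. A correction for effective length left 2 genes called higher (Hist1h1b and Hist1h1d) and 1 lower (Hist1h2bc), and the median of the 21 was then 0.02. Histone genes were short (median effective length of the 21, 626 bases, against 2854 bases for all tested genes), and that correction shifted their log2 fold changes by a median of -0.76. Over all genes, 60.5% were called in either direction with that correction. Leaving out each library in turn kept 7 to 9 of the 9 calls, with 53.5%, 58.1% and 56.2% of all genes called without WT replicates 1, 2 and 3 and 60.3%, 56.6% and 55.3% without KO replicates 1, 2 and 3. DESeq2 called 7 of the 9 (61.0% of all genes), and limma on log2(FPKM + 1) and log2(FPKM + 0.1) called all 9 (63.0% and 63.1%). With no filter 9 of the 9 were called (48.9%), with a mean of at least 50 counts the 4 that remained (62.4%).

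**Figure D2:**
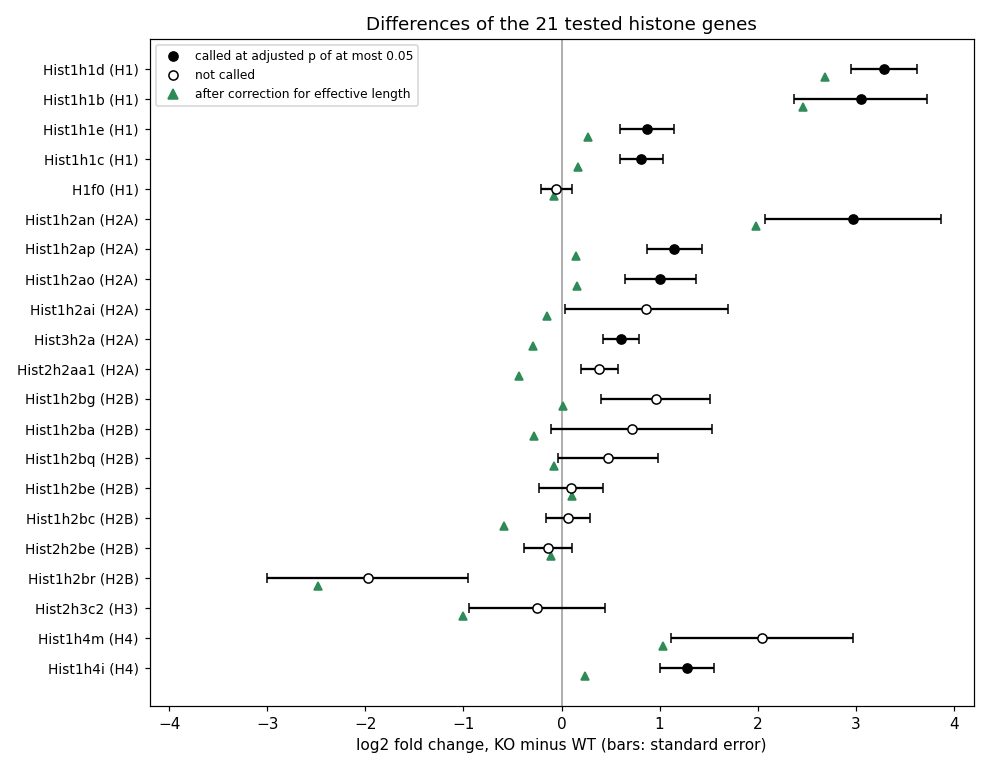
Log2 fold change (KO minus WT) with standard error of the 21 tested histone genes, by class, as filled circles where called and open circles where not, and the same value after the length correction (triangles). Hist1h1d and Hist1h1b stay near 2.69 and 2.47 after the correction, whereas Hist1h1c, Hist1h2ap and Hist1h4i move close to 0.

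Among the H1 genes, 4 of 5 tested were called higher, and the exception was the most abundant one (over all genes, 31.8% were called higher). Of the 4, Hist1h1b and Hist1h1d were kept by the filter because of their KO counts. H1f0 (gene 14958, chromosome 15, positions 79026456 to 79030504) gave counts of 4325, 4529 and 3794 in WT and of 4640, 3026 and 3619 in KO. The groups overlapped (log2 FC -0.05, SE 0.16, adjusted p = 0.786), where log2 FC is the log2 fold change of KO over WT. Hist1h1c, which encodes H1.2 (gene 50708, chromosome 13, positions 23738807 to 23747203), gave counts of 455, 265 and 493 in WT and of 751, 619 and 606 in KO. Each KO library was above each WT library, and the level was 18.8 ± 5.78 CPM in WT and 33.1 ± 4.32 in KO (SD, n = 3). The difference passed the test (log2 FC 0.81, SE 0.22, adjusted p = 0.0116). Hist1h1e, which encodes H1.4, gave counts of 38.5, 24.2 and 32.7 in WT and of 67.2, 45.1 and 49.2 in KO (log2 FC 0.87, SE 0.27, adjusted p = 0.0228). Its groups did not overlap either, but the call was lost without WT replicate 2 (adjusted p = 0.0732) and without KO replicate 1 (adjusted p = 0.0810). After the length correction Hist1h1c was at 0.16 and Hist1h1e at 0.27, and neither was called.

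The largest differences of the H1 class, and of all tested histone genes, were in 2 genes of low count, which were singled out after their values were seen. Hist1h1d, which encodes H1.3 (gene 14957, chromosome 13, positions 23553262 to 23556134), gave counts of 5.66, 3.16 and 3.68 in WT and of 43.6, 37.3 and 40.1 in KO. All KO values were far above all WT values (log2 FC 3.29, SE 0.33, adjusted p = 6.8e-05). In its GENCODE transcript, 97.7% of the 50-base stretches occurred in no other gene. That transcript has 7425 bases, of which 4931 are 3′ UTR, and is longer than the span given here. It shares 131 stretches with Hist1h1e and 105 with Hist1h1c, and the counts of Hist1h1d were not whole. The unique share of the counted sequence was not examined. It was the only histone gene past the study's threshold (adjusted p of at most 0.001 and at least a 2-fold change), which 11.6% of all tested genes passed upward and 8.24% downward. Hist1h1b, which encodes H1.5, gave counts of 0, 4 and 1 in WT and of 11, 14 and 16 in KO (log2 FC 3.05, SE 0.68, adjusted p = 0.00442). Both were kept by the filter because of their KO counts, so their calls there were partly built in. In the fit with no filter, the adjusted p was 0.000107 for Hist1h1d and 0.00828 for Hist1h1b. The size for Hist1h1b rested on few WT counts, and its log2 FC was 4.56 without WT replicate 2 and 0.76 by limma on log2(FPKM + 1).

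The H1 genes summed to 217 ± 10.6 CPM in WT and 228 ± 46.6 in KO, with overlap, and most of both sums was H1f0. Without H1f0, all the other 66 histone genes summed to 145 ± 11.2 CPM in WT and 248 ± 14.8 in KO, a ratio of 1.71.

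The H2A genes summed to 67.5, 106 and 50.7 CPM in WT and 139, 171 and 133 in KO. The groups did not overlap and the ratio of the means was 1.97, with WT replicate 2 the highest WT library (2.50 without it). Hist1h2ap (gene 319171, chromosome 13, positions 21833024 to 21833475) gave counts of 429, 856 and 393 in WT and of 924, 1242 and 1289 in KO (log2 FC 1.15, SE 0.28, adjusted p = 0.00742). Its near-identical copy Hist1h2ao (gene 665433, chromosome 13, positions 21810367 to 21810918) gave counts of 423, 845 and 284 in WT and of 933, 1232 and 722 in KO. WT replicate 2 lay above KO replicate 3, so the groups overlapped (log2 FC 1.01, SE 0.36, adjusted p = 0.0392). That call was lost in 4 of the 6 fits without 1 library, namely WT replicates 1 and 3 (adjusted p = 0.116 and 0.0912) and KO replicates 1 and 2 (adjusted p = 0.0788 and 0.126). It was also lost with library totals only (adjusted p = 0.0520) and by DESeq2 (adjusted p = 0.0637). After the length correction Hist1h2ao was at 0.16 (adjusted p = 0.733) and Hist1h2ap at 0.15 (adjusted p = 0.662), and neither was called.

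Hist1h2ao and Hist1h2ap share 403 stretches of 50 bases, 93.5% of those of Hist1h2ao, so most 50-base reads cannot be told apart. Their sum was 50.1 ± 25.4 CPM in WT and 106 ± 15.9 in KO, a ratio of 2.12. Hist1h2ai, named after its values were seen, has 9.88% unique stretches and shares 236 stretches (68.6%) with each of these genes and 289 (84.0%) with Hist1h2ad. It gave counts of 200, 281 and 5.23 in WT and of 270, 412 and 134 in KO, and its groups overlapped (log2 FC 0.87, SE 0.83, adjusted p = 0.389). The sum of Hist1h2ao, Hist1h2ap and Hist1h2ai was 57.6 ± 31.1 CPM in WT and 120 ± 21.6 in KO.

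Other H2A genes differed less or had few counts. Hist3h2a (gene 319162, chromosome 11, positions 58954685 to 58955192) gave counts of 143, 92.1 and 132 in WT and of 169, 174 and 175 in KO (log2 FC 0.61, SE 0.18, adjusted p = 0.0178) without overlap. After the length correction it was at -0.29 (adjusted p = 0.197). Its GENCODE transcript of 2146 bases, longer than the span given here, shares 660 stretches of 50 bases with Trim17. How many of these lie in the counted sequence was not examined. Hist2h2aa1 gave counts of 260, 164 and 232 in WT and of 307, 250 and 237 in KO, with overlap (log2 FC 0.39, SE 0.19, adjusted p = 0.107). Hist1h2an, singled out after its values were seen, gave counts of 0, 20.3 and 0 in WT and of 50.5, 48.1 and 49.9 in KO (log2 FC 2.97, SE 0.90, adjusted p = 0.0190). Only 14.2% of its stretches were unique, and DESeq2 (adjusted p = 0.192) and the length correction (adjusted p = 0.0931) did not call it. WT replicate 2 held all of its WT counts, and without that library the log2 FC was 8.68 (adjusted p = 9.15e-05). It too was kept by the filter because of its KO counts, and in the fit with no filter its adjusted p was 0.0260.

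**Figure D3:**
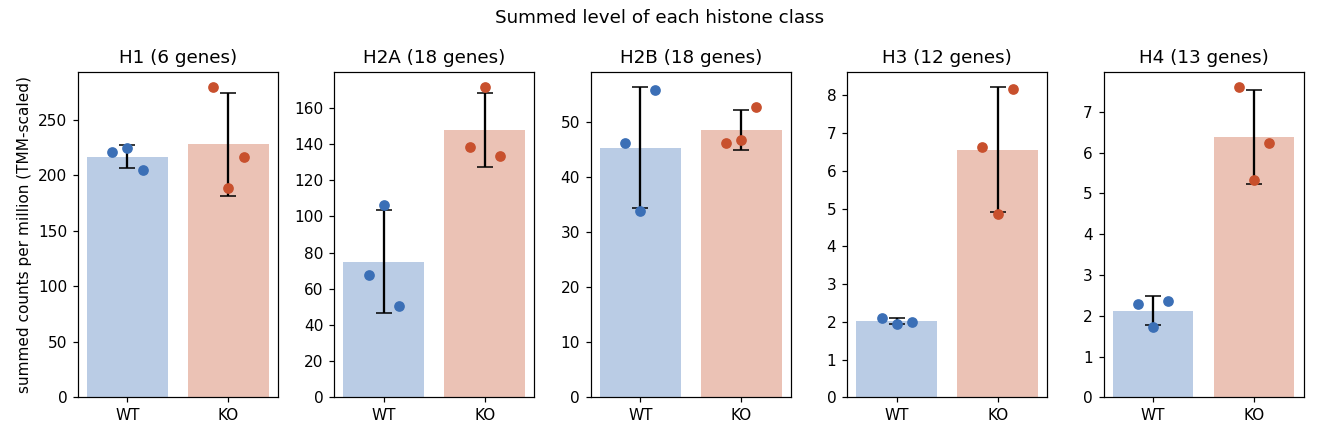
Summed CPM of each histone class in WT and KO, with points for the 3 libraries of a group, bars for the mean and whiskers for the SD, and a vertical axis of its own for each class. The H2A, H3 and H4 points of KO lie above all WT points, and those of H1 and H2B overlap.

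In the H2B genes 0 of 7 tested were called by edgeR in either direction. At an unadjusted p under 0.05 the count was 0 as well, as it was for adjusted calls by DESeq2 and by limma. Other edgeR fits called single genes, namely Hist1h2bc lower with the length correction (-0.59, adjusted p = 0.0353), Hist1h2bg higher without WT replicate 2 (1.82, adjusted p = 0.0237) and Hist1h2bq and Hist1h2br without WT replicate 1. The H2B genes summed to 45.3 ± 11.0 CPM in WT and 48.6 ± 3.64 in KO, with overlap. Hist1h2bc (gene 68024, chromosome 13, positions 23684199 to 23692480), which held most of it, gave counts of 730, 523 and 1013 in WT and of 652, 703 and 849 in KO (log2 FC 0.07, SE 0.22, adjusted p = 0.818). Hist2h2be gave counts of 94.0, 67.2 and 65.2 in WT and of 79.0, 53.6 and 57.0 in KO (log2 FC -0.14, SE 0.24, adjusted p = 0.642). For both, the groups overlapped. Their annotated transcripts carry AATAAA in the 3′ UTR and no stem-loop letters were found in them.

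Hist1h2bq gave counts of 112, 25.6 and 29.0 in WT and of 63.7, 85.8 and 63.7 in KO (log2 FC 0.47, SE 0.51, adjusted p = 0.445). Its transcripts had 0% unique stretches, all 1209 being shared with Hist1h2br, which gave counts of 0.68, 56.9 and 31.6 in WT and of 14.9, 3.10 and 3.10 in KO. In WT replicate 1 nearly all counts of the pair went to Hist1h2bq and in WT replicate 2 most went to Hist1h2br, whereas their sum was 3.95 ± 1.14 CPM in WT and 3.92 ± 0.567 in KO. Without WT replicate 1 the fit called Hist1h2bq higher (1.48, adjusted p = 0.00432) and Hist1h2br lower (-2.54, adjusted p = 0.0141).

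The H3 genes had the lowest WT sum of the 5 classes (2.02 ± 0.0805 CPM), and in KO it was 6.56 ± 1.65, a ratio of 3.25 without overlap. A single one was tested. Hist2h3c2 gave counts of 31.0, 28.4 and 28.2 in WT and of 0.65, 33.7 and 32.6 in KO, so KO replicate 1 stood far below the rest (log2 FC -0.25, SE 0.70, adjusted p = 0.775, and 0.31 without that library). In the same library its copy Hist2h3c1 had 41.8 counts, and it had 0 in the other 5. The pair summed to 31.0, 28.4 and 28.2 in WT and to 42.4, 33.7 and 32.6 in KO, without overlap. Hist2h3b had 0 counts in each WT library and 15.5, 8.80 and 28.6 in KO. Against a floor of 3 counts per library this is at least 5.88-fold higher in assigned counts. Hist2h3b shares 350 stretches of 50 bases (79.7%) with each of Hist2h3c1 and Hist2h3c2, and 20.3% of its stretches are unique. The bound does not cover how reads were divided among these copies. Hist1h3d gave counts of 8.12, 3.31 and 6.26 in WT and of 9, 6.17 and 19.8 in KO, and its groups overlapped. Of the 12 H3 genes, 6 lay higher in KO without overlap, beside 31.5% of all rows.

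**Figure D4:**
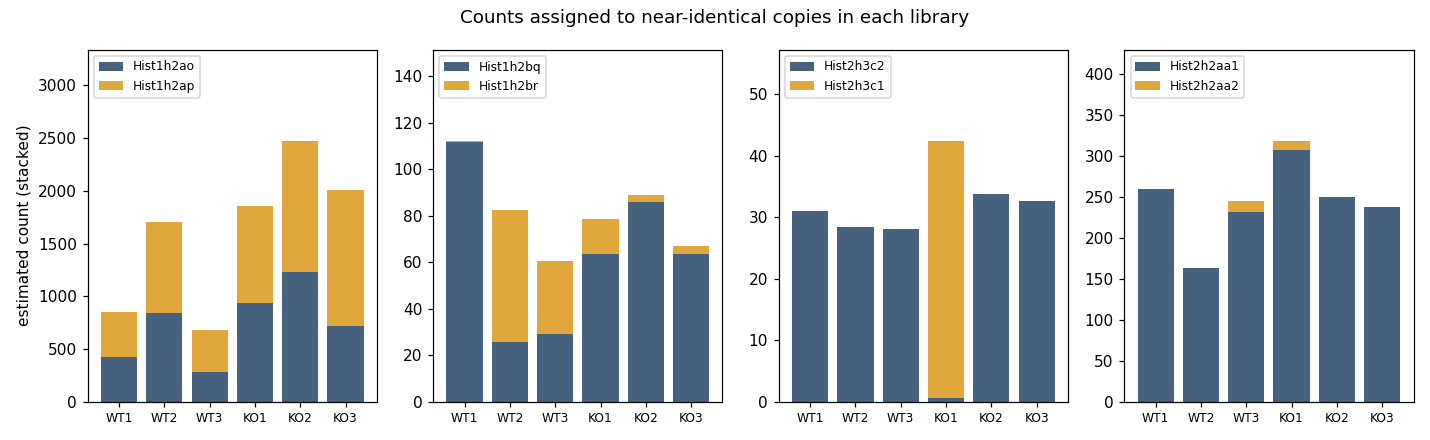
Estimated counts, stacked by gene, in each of the 6 libraries for 4 sets of near-identical histone genes. The share of each copy changes from library to library, as in KO1, where Hist2h3c1 takes 41.8 counts and Hist2h3c2 0.65, while the stacked total of that pair stays between 28.2 and 42.4 counts.

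The H4 genes summed to 2.13 ± 0.353 CPM in WT and 6.38 ± 1.15 in KO, a ratio of 3.001 without overlap. Hist1h4i (gene 319158, chromosome 13, positions 22040960 to 22041362) gave counts of 35.3, 25.1 and 25.8 in WT and of 81.3, 64.9 and 47.9 in KO. All KO libraries were above all WT libraries (log2 FC 1.28, SE 0.28, adjusted p = 0.00389), and after the length correction it was at 0.24 (adjusted p = 0.531). Hist1h4m gave counts of 1.47, 0 and 12.7 in WT and of 20.8, 7.23 and 27.1 in KO, and its groups overlapped (log2 FC 2.05, SE 0.93, adjusted p = 0.0853). Without WT replicate 3 it was called (5.001, adjusted p = 0.00615). Hist4h4, all of whose counts were whole, gave counts of 0, 1 and 0 in WT and of 10, 6 and 17 in KO, at least 3.67-fold higher against the floor of 3 counts. Of the 13 H4 genes, 5 lay higher in KO without overlap, beside 31.5% of all rows.

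The 46 genes below the filter were also summed, since no test was made for each. They gave counts of 63.4, 64.8 and 64.0 in WT and of 301, 204 and 298 in KO, which is 2.98 ± 0.0699 and 13.4 ± 2.78 CPM. Among them 16 lay higher in KO without overlap (31.5% of all rows), 0 lay lower (26.6% of all rows) and 30 overlapped. Most of the 46 had 0 counts in a WT library and so could not lie lower. The 67 genes were also divided by the AATAAA signal. The 19 with it summed to 266 ± 5.59 CPM in WT and 282 ± 45.4 in KO, a ratio of 1.06 with 3 of 9 tested called higher. H1f0 alone made up 196 CPM of this sum in WT and 189 in KO, so it dominates this ratio. The 48 without it summed to 75.3 ± 29.4 and 155 ± 18.5 CPM, a ratio of 2.06 with 6 of 12 tested called higher, beside 31.8% of all genes tested. These ratios are a description of summed counts, with no test of their difference. Of the 12, Hist1h1b, Hist1h2an and Hist1h2bg were kept by the filter because of their KO counts. Hist1h1b and Hist1h2an are among the 6 called. Hist1h1d, kept in the same way, is among the 3 called of the 9. Several of the 48, as Hist1h1b and Hist1h2an, had no annotated 3′ UTR, so no signal could be found in them.

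Shared reads marked most of the family. At least 1 count was not a whole number for 61 of the 67 genes (91.0%), against 40.6% of all rows, at a tolerance of 0.005. Only H1f0, Hist1h1a, Hist1h1b, Hist2h2bb, Hist3h2ba and Hist4h4 had whole counts in all 6 libraries. The median share of 50-base stretches found in no other gene was 50.5%, and it was 98.9% in H1, 27.0% in H2A, 53.1% in H2B, 38.02% in H3 and 60.5% in H4. It was under 20% for 16 genes and at least 95% for 7. These shares are over GENCODE transcripts, some of them longer than the deposited gene spans. They need not hold for the sequence on which reads were counted. Within the gene spans given in the table, 45 of the 67 overlapped another histone gene, among them those inside the long span of Hist1h2be. No source used here states whether reads were counted by strand, so overlapping genes may also divide reads between them.

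Genes that act on histones or stand beside them were examined in 4 lists, whose counts of calls are read beside the 31.8% of all tested genes called higher and the 30.2% called lower. None of the lists was tested against these shares. Of 12 replacement histone genes in the table, 10 were tested, 5 called higher and 1 lower. The H3.3 gene H3f3b was called higher (log2 FC 0.26, SE 0.10, adjusted p = 0.0456) and H3f3a was not (0.14, SE 0.11, adjusted p = 0.287). H2afz, which encodes H2A.Z, rose by 0.33 on the log2 scale (adjusted p = 0.0337) and H2afy, which encodes macroH2A, by 0.37 (adjusted p = 0.00462). H2afj, Cenpa (the centromeric H3) and H2afv are named after their values were seen. H2afj gave counts of 720, 692 and 653 in WT and of 2500, 2321 and 2002 in KO (1.83, SE 0.11, adjusted p = 4e-06), Cenpa rose by 1.63 (SE 0.13) and H2afv fell by 0.52 (SE 0.11).

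Of 22 genes for histone gene transcription and 3′ end processing, 6 were called higher (31.8% of all genes) and 2 lower (30.2% of all genes). Ncbp1, a subunit of the cap-binding complex, rose by 0.83 on the log2 scale (SE 0.10, adjusted p = 0.000198). Sympk, a scaffold of the cleavage complex, fell by 0.66 (SE 0.12, adjusted p = 0.00125) and Upf1, a helicase needed for histone mRNA decay, fell by 0.42 (SE 0.13, adjusted p = 0.0181). Srrt, which joins the cap to RNA processing, was at -0.10 (adjusted p = 0.344). Of the other genes of this list, some are named after their values were seen. Zfp473 (0.89, adjusted p = 0.0100) and Eri1 (0.61, adjusted p = 0.00255) were called higher, whereas Slbp and Npat were not called. Slbp gave counts of 632, 877 and 669 in WT and of 536, 688 and 784 in KO (-0.01, SE 0.17, adjusted p = 0.964), and Npat, the coactivator of histone genes in S phase, was at 0.09 (SE 0.15, adjusted p = 0.593).

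Of 30 genes of S phase and DNA replication, 3 were called higher (31.8% of all genes) and 0 lower (30.2%) by edgeR, and the median log2 fold change was 0.18. The lower count was 1 (Mcm6) at an unadjusted p under 0.05, 1 by DESeq2 and 0 by limma. Ccna2, the cyclin of S and G2 phase, rose by 0.93 on the log2 scale (SE 0.15, adjusted p = 0.000742), and Tk1 and Prim2, the other two called, by 0.73 and 0.65. Pcna, the sliding clamp, was at 0.19 (adjusted p = 0.425), Rrm1 at 0.41 (adjusted p = 0.0644) and the helicase subunit Mcm6 at -0.56 (adjusted p = 0.0746). For 20 of the 30, WT replicate 2 was the highest of all 6 libraries. The same library had the highest WT sum of H2A, and the part of this library in the H2A values was not tested beyond the value without it. The proliferation marker Mki67 gave counts of 2436, 2964 and 2393 in WT and of 4715, 5323 and 4898 in KO (log2 FC 1.05, SE 0.11, adjusted p = 8.5e-05).

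Of 20 histone chaperones and assembly factors, 8 were called higher (31.8% of all genes) and 3 lower (30.2%). Npm1, a nucleolar histone chaperone, gave counts of 2130, 2841 and 1834 in WT and of 8822, 11736 and 10580 in KO (2.30, SE 0.18, adjusted p = 1.7e-05). Nap1l1, which carries H2A and H2B, rose by 1.06 (SE 0.14, adjusted p = 0.000285), Ssrp1, a subunit of FACT, by 0.56 (SE 0.10, adjusted p = 0.00130) and Rbbp7, which binds H4, by 0.44 (SE 0.12, adjusted p = 0.0107).

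**Figure D5:**
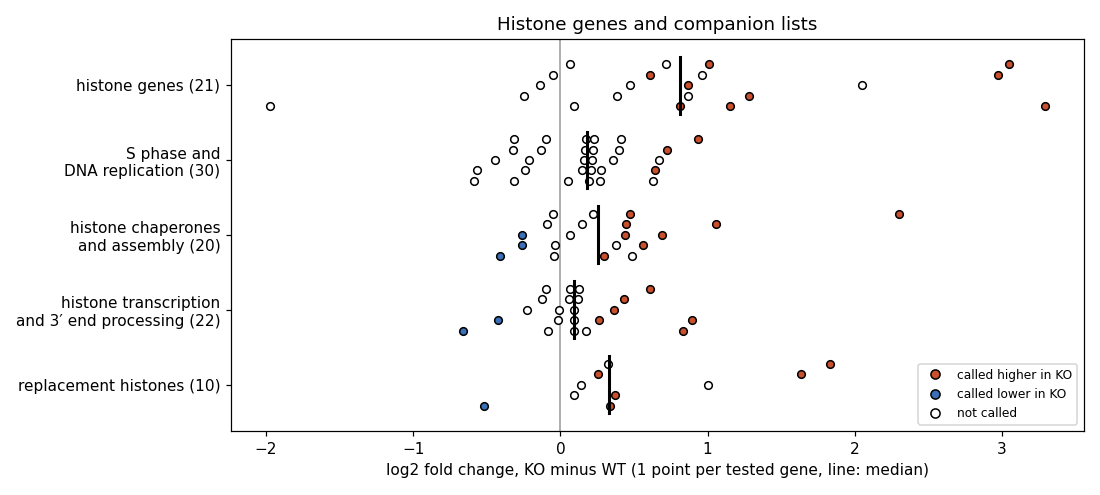
Log2 fold change (KO minus WT) of each tested gene among the histone genes and in 4 lists, with a line at each median and colours for genes called higher (red), lower (blue) or not called (white). The medians are 0.81 for the histone genes, 0.33 for the replacement histones, 0.26 for the chaperones, 0.18 for the S phase genes and 0.09 for the transcription and processing genes.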

How the data were processed

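RNA of separated corneal epithelium gave 3 WT and 3 KO libraries. The study's methods describe rRNA depletion and single-end reads of 50 bases on a BGISEQ-500, whereas the labels name a TruSeq kit. The authors aligned reads with Bowtie2 2.2.5 and estimated levels with RSEM 1.2.12, as the submitters' processing notes record. Per the file headers, the deposited table holds the authors' expected counts (estimated, not whole where reads fit several genes), FPKM and TPM for 17866 protein-coding genes. The labels name mm9, but the table's chromosome accessions and positions are those of GRCm38. The authors' own fold changes and p-values were not used.

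Expected counts were rounded for the quasi-likelihood test of edgeR 4.0.16 under R 4.3.3 (TMM, filterByExpr with a minimum count of 10, genotype only), with Benjamini-Hochberg adjustment over 13305 genes. Adjusted p-values in the text come from this fit unless another is named. SE was obtained from the log2 fold change and its F statistic. CPM used unrounded counts and TMM factors. P-values measure the spread between these libraries. Where every library of a group had at most 3 counts, the fold change is a bound. Sequence features came from GENCODE M21 transcripts, and a stretch was called unique if it occurred in no other gene. Members and lists were chosen with earlier results of these data known. The rule for naming took Rela, the 3 most abundant members of each class, up to 6 called members in each direction with a mean of at least 50 counts, and the 4 most abundant genes of each list. Near-identical copies and neighbours of these were added. Any other gene, Tk1, Prim2 and Mki67 among them, is to be read as chosen after its values were seen. Of the listed genes, Cdh5, H2afy3 and H2afb1 were not analysed here.

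On simulated data with 200 genes changed, of 13305, the edgeR fit recovered 87% of 2-fold and 95% of 4-fold changes with 6 false calls. The simulation gave every gene the same dispersion, shared no reads between genes and changed far fewer genes than were called here. Its rates therefore check the code and do not carry over to the histone genes. Alternatives were RLE factors, library totals, no filter, a mean of at least 50 counts, no rounding, a loess offset for effective length, a replicate block, leaving out each library, DESeq2 1.42.0, limma 3.58.1 on log2(FPKM + 1) and log2(FPKM + 0.1) and, for sums, the deposited TPM and members with whole counts only. Tables and plots used Python 3.11.15, pandas 2.3.3, numpy 2.4.6 and matplotlib 3.10.9. Protein sequences were not used here.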

Additional observations from a re-analysis of the deposited data

How the results depend on the processing

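The count of histone genes called higher (9 of 21 tested) was 24 of 67 with no filter, 4 of 10 with a mean of at least 50 counts, 2 of 21 with the length correction, 7 by DESeq2, 10 by limma at either pseudocount and 8 to 13 when a library was left out, where 22 to 28 genes were tested. The higher counts without 1 WT library (13 each) came with more genes tested. The count called lower was 1 with the length correction (Hist1h2bc, -0.59, adjusted p = 0.0353), 0 to 1 without 1 library (1 without WT replicate 1) and 0 otherwise. At the study's threshold, 1 gene passed, against 0 with a mean of at least 50 counts, 3 by DESeq2 and 1 to 3 without 1 library (3 without WT replicate 2). The length correction also turned the log2 fold changes of Hist1h2ai to -0.15, Hist2h2aa1 to -0.44, Hist3h2a to -0.29, Hist1h2ba to -0.28 and Hist1h2bq to -0.0772; the cause was not tested. Several small values changed sign without 1 library: H1f0 ranged from -0.24 to 0.0815 (above 0 without WT replicate 2, at 0.0088, and without KO replicate 2), Hist1h2bc from -0.14 to 0.36 (below 0 without WT replicate 2 and, at -0.0462, without KO replicate 3), Hist1h2be from -0.10 to 0.48, Hist2h2be from -0.33 to 0.047 and Hist2h3c2 from -0.66 to 0.31 (above 0 without KO replicate 1). With library totals only, Hist1h2bc was at -0.0256 and Hist1h2be at -0.0034.

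Restricting sums to members with whole counts left 6 genes, and the ratio of KO to WT was then 4.32 for H2B (2 genes, against 1.07), 35.6 for H4 (1 gene, Hist4h4, with 1 WT count in all, against 3.001) and 0.974 for all classes (against 1.28), where H1f0 dominates. H2A and H3 had no such member. Other scalings and the deposited TPM left the ratios of KO to WT for the sums of H2A, H3 and H4 above 1 in every setting run. The correction for effective length was not run for the sums.

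Same-numbered WT and KO libraries did not deviate together (correlations 0.0345, -0.00998 and 0.0606), so the replicate number only names them. With the number as a replicate block, 10 genes were called higher and 0 lower, all 9 of the main calls among them. The 46 genes below the filter had few counts, and 4 of them had at most 3 counts in each library. The part of depth in this was not tested.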
